A study of Mus musculus with 12 samples.

Results

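The measurement described here is the genotype by medium interaction in mouse embryonic fibroblasts (MEFs): how far the RNA response to starvation in the cells labelled Rbbp5 knockout (KO) differed from the response in the cells labelled wildtype. Its members were all 12 of the 12 samples of the series and 12653 of 25117 gene symbols. These symbols had at least 1 TPM in at least 3 libraries. TPM is the unit of transcripts scaled to a nominal library total, which the deposited sums fell short of to different degrees. The study grew MEFs with floxed Rbbp5 alleles and measured polyadenylated RNA by sequencing in 4 groups of 3 libraries. For each gene the interaction was the difference (labelled KO EBSS minus labelled KO full medium) minus (labelled wildtype EBSS minus labelled wildtype full medium), on log2(TPM + 1), a scale that understates the change of genes with low TPM. A positive interaction therefore means a higher value of EBSS against full medium in the labelled KO than in the labelled wildtype, and it can come from a fall in the labelled wildtype, a gain in the labelled KO, or both. A call needed an adjusted p under 0.05 in a limma fit over all tested genes.

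Every library, the controls included, carried the genotype Rbbp5 (flox/flox) with Rosa26 CRE (+/+). The labelled wildtype cells had no tamoxifen, and the labelled KO cells had tamoxifen for 7 days. Both then spent 16 hours either in full medium, which is DMEM and 10% fetal bovine serum, or in EBSS, Earle's balanced salt solution, which holds salts and glucose but no amino acids and no serum. Since only the labelled KO cells were treated, effects of tamoxifen, of Cre activity and of Rbbp5 loss cannot be told apart. EBSS removed serum and amino acids together, so their effects cannot be told apart either. The sample titles number the libraries of a group as biological replicates 1 to 3 but do not say whether these came from separate cultures or embryos, so the p-values measure the spread between these libraries, which may be technical.

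RBBP5 belongs to the shared core of the histone H3 lysine 4 methyltransferases of the SET1/COMPASS and MLL type, which act at promoters and enhancers. In fibroblasts kept without amino acids and serum, mTORC1 signalling falls. Autophagy and lysosomal genes and the ATF4 program of the integrated stress response are engaged. Growth-linked programs such as matrix production and cell division decline. The interaction asks whether that adaptation differs once the methyltransferase core has lost this subunit.

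The targeted gene did not follow the EBSS labels. Rbbp5 (chromosome 1, 132477365 to 132505659, plus strand) stood at 26.2, 25.7 and 26.2 TPM in the labelled wildtype full medium libraries and at 7.47, 9.34 and 8.31 TPM in the labelled KO full medium libraries, given in the order of replicates 1 to 3 here and below. In EBSS it stood at 12.4, 14.0 and 11.8 TPM in the libraries labelled wildtype and at 31.9, 24.6 and 23.0 TPM in those labelled KO. In full medium the level was thus lower in the libraries labelled KO, in EBSS it was lower in the libraries labelled wildtype, and within each medium the groups did not overlap. The Rbbp5 interaction was 2.52 (SE 0.19, adjusted p 3.4e-07) and was 1.42 with the libraries put on a common scale by median-of-ratios size factors. All directions below hold for the labels as given, and values with the genotype labels of the 2 EBSS groups exchanged are set beside many of them.

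Other features of the libraries moved with the groups. The deposited TPM summed to 923097 to 941267 in the libraries labelled wildtype EBSS and to 983769 to 993651 in the other 3 groups. Cytosolic ribosomal protein genes took 32.7 to 35.3% of all TPM in the libraries labelled wildtype EBSS, against 15.1 to 15.4% in labelled wildtype full medium, 17.2 to 19.2% in labelled KO full medium and 15.1 to 15.4% in labelled KO EBSS. The median TPM of the tested genes ran the other way, 10.1 to 10.5 in labelled wildtype EBSS and 17.5 to 23.0 in the other 3 groups. Labelled wildtype EBSS library 3 listed 1122 tested genes at 0, against 12 to 229 in the other libraries, and labelled KO EBSS library 1 stood apart from libraries 2 and 3 of its group at many stress and matrix genes. The gap between labelled KO EBSS and labelled wildtype full medium passed the test for 17 of the 12653 genes as deposited, and for 23 without labelled KO EBSS library 1. The part of these features in the results was not tested.

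The interaction covered most of the transcriptome, and its balance depended on the scale. As deposited, 9710 genes passed (76.7% of those tested), 8123 with a positive interaction (64.2%) and 1587 with a negative one (12.5%), and the median over all tested genes was 1.06 on the log2 scale. After median-of-ratios scaling, 8449 genes passed (66.8%), 4296 positive (34%) and 4153 negative (32.8%), with a median of 0.05. The same 4296 positive genes were called on both scales, as were 1586 of the 1587 negative genes. With the EBSS labels exchanged, 7999 genes passed (63.2%), 1134 positive (8.96%) and 6865 negative (54.3%), and on the median-of-ratios scale 2938 were positive (23.2%) and 3033 negative (24%).

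Split into its parts, the interaction came mostly from the libraries labelled wildtype. EBSS against full medium passed for 10260 genes in the labelled wildtype (81.1%), 1170 higher in EBSS (9.25%) and 9090 lower (71.8%), with a median of -0.94. In the labelled KO it passed for 6861 genes (54.2%), 4217 higher (33.3%) and 2644 lower (20.9%), with a median of 0.13. After median-of-ratios scaling it passed for 8364 genes in the labelled wildtype and 6586 in the labelled KO. Among the called interactions, 3512 genes fell in the labelled wildtype and rose in the labelled KO, 3579 fell in the labelled wildtype and did not pass in the labelled KO, and 413 rose in the labelled wildtype and fell in the labelled KO. On the median-of-ratios scale these 3 classes held 1850, 1505 and 1576 genes. Among the called interactions a response in the same direction under both labels was the rarer case. This follows in part from the selection, since a call requires the EBSS effects to differ between the labels. Of the called genes 693 were lower in EBSS under both labels, 572 of them with a positive interaction. A further 108 were higher under both, 26 of them with a positive interaction. Where the interaction did not pass, 825 genes were lower in EBSS under both labels and 138 were higher under both.

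**Figure D1:**
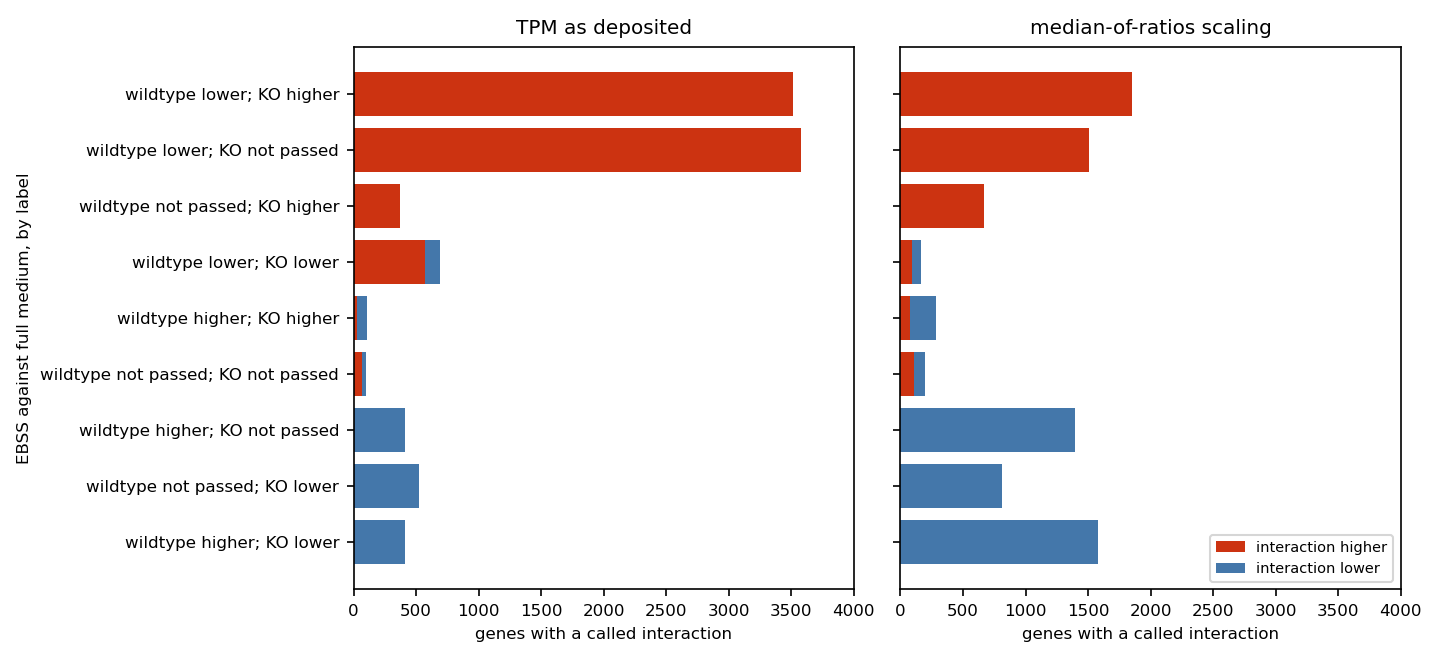
Number of genes with a called interaction (horizontal axis) in each combination of the EBSS effect in the labelled wildtype and labelled KO libraries (rows), as deposited on the left and after median-of-ratios scaling on the right. Red bars are positive and blue bars negative interactions. As deposited the 2 largest rows, with 3512 and 3579 genes, are those lower in the labelled wildtype, while after scaling the rows at the bottom reach 1393, 809 and 1576 genes.

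**Figure D2:**
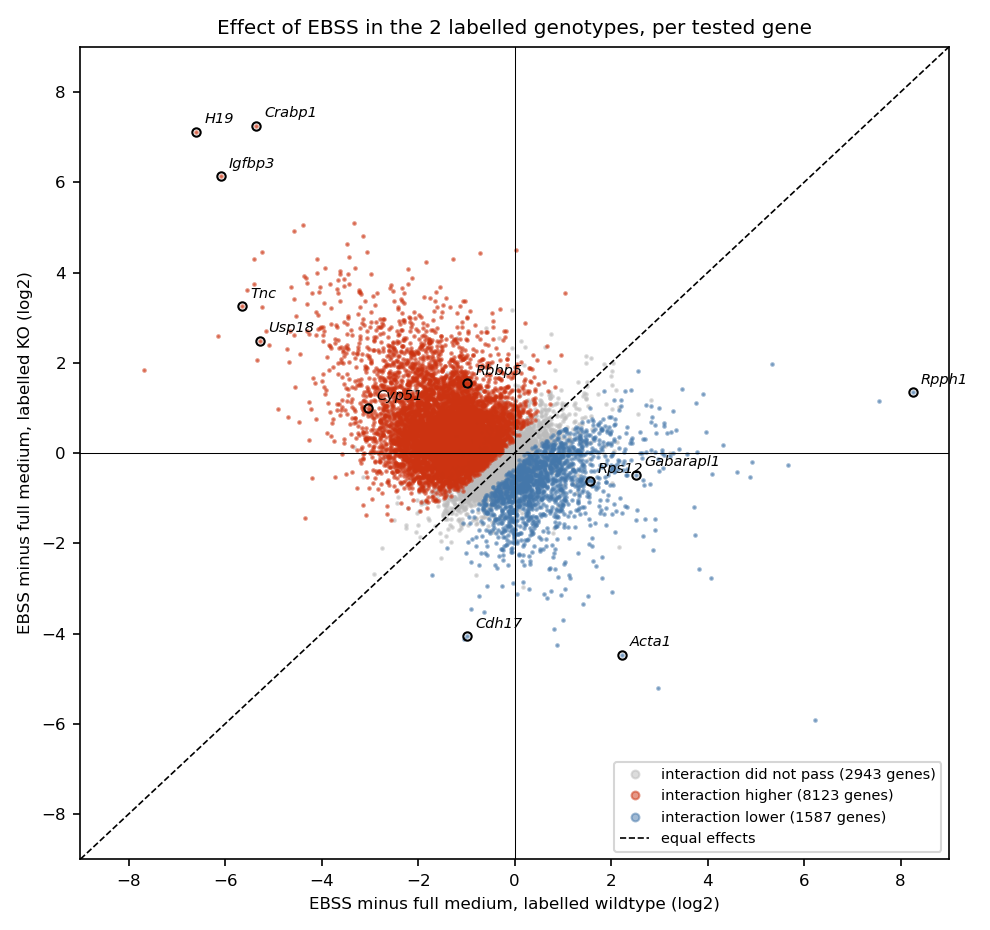
Each point is 1 of the 12653 tested genes, with the log2 difference EBSS minus full medium in the labelled wildtype on the horizontal axis and in the labelled KO on the vertical axis. Red points have a positive called interaction (8123 genes), blue points a negative one (1587) and grey points did not pass (2943). H19, Crabp1 and Igfbp3 lie in the upper left, Rpph1 at the far right and Acta1 in the lower right.

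Among the 10 genes leading the positive side were a long non-coding RNA, secreted and matrix proteins, a gap junction protein and intracellular proteins. H19, an imprinted long non-coding RNA of embryonic mesenchyme (chromosome 7, 142575529 to 142578143, minus strand), stood at 186, 227 and 200 TPM in labelled wildtype full medium, 0.445, 1.02 and 2.19 in labelled wildtype EBSS, 0.786, 1.13 and 1.11 in labelled KO full medium and 229, 317 and 298 in labelled KO EBSS. Labelled wildtype full medium and labelled KO EBSS were high and the other pair low, with no overlap between high and low groups. The interaction of H19 was 13.73 (SE 0.34, adjusted p 2.9e-10), made up of a value of -6.6 in the labelled wildtype and a gain of 7.12 in the labelled KO, and with the EBSS labels exchanged it was -0.38 (adjusted p 0.35).

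Crabp1, a cytoplasmic retinoic acid binding protein (chromosome 9, 54764748 to 54773110, plus strand), showed the same split. Its levels were 166, 196 and 159 TPM in labelled wildtype full medium, 3.42, 2.5 and 3.86 in labelled wildtype EBSS, 0.661, 0.541 and 0.282 in labelled KO full medium and 213, 227 and 240 in labelled KO EBSS. Here the low groups differed too, labelled KO full medium lying below labelled wildtype EBSS in every library. The interaction was 12.62 (SE 0.21, adjusted p 1.8e-11) and it remained positive, at 1.12 (adjusted p 0.00065), with the EBSS labels exchanged.

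Igfbp3, a secreted carrier of insulin-like growth factors, had an interaction of 12.23 (SE 0.37) with 140 to 148 TPM in labelled wildtype full medium, 116 to 164 in labelled KO EBSS and no value above 2.17 in the other 2 groups. Serpina3g, an intracellular protease inhibitor of the serpin family with close paralogs that share reads, had 9.48 (SE 0.23). Kap, the kidney androgen-regulated protein, was listed at 0 in all 6 libraries of labelled wildtype EBSS and labelled KO full medium and at 19.4 to 38.6 TPM in the other 6, so its fitted value of 9.45 depends on the pseudocount. These genes therefore followed the same pairing of groups as H19, and with the EBSS labels exchanged their interactions were 0.00 for Igfbp3, 0.26 for Serpina3g and -0.66 for Kap.

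Several leading genes were split within the labelled KO EBSS group. Has2, which makes the matrix glycan hyaluronan, stood at 65.0, 66.3 and 68.2 TPM in labelled wildtype full medium, 0.609, 0.481 and 1.37 in labelled wildtype EBSS, 0.197, 0.352 and 0.368 in labelled KO full medium and 4.67, 64.1 and 63.6 in labelled KO EBSS. Gjb2, the gap junction protein connexin 26, was listed at 0 in all 3 labelled wildtype EBSS libraries, was at most 0.199 TPM in labelled KO full medium and reached 4.03, 49.7 and 44.6 in labelled KO EBSS. In both genes library 1 of labelled KO EBSS lay far below libraries 2 and 3, and above every library of the low groups. The interaction of Has2 was 9.71 (SE 1.02, adjusted p 5.2e-06) and 10.88 without that library, and that of Gjb2 was 9.72 (SE 0.94) and 10.80, a value that depends on the pseudocount because of the zeros. Neither passed with the EBSS labels exchanged, at 1.68 for Has2 (adjusted p 0.17) and 0.71 for Gjb2 (adjusted p 0.52).

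Tuba8, an alpha-tubulin isotype, had an interaction of 9.14 (SE 0.58) and levels of 28.9, 105 and 96.8 TPM in labelled KO EBSS, against 0.391 to 1.60 in labelled wildtype EBSS. Tnc, the matrix glycoprotein tenascin C, stood at 548, 592 and 569 TPM in labelled wildtype full medium, 8.78, 11.2 and 11.1 in labelled wildtype EBSS, 43.7, 49.7 and 57.8 in labelled KO full medium and 293, 632 and 622 in labelled KO EBSS. Its interaction was 8.91 (SE 0.35, adjusted p 4.5e-09). Dcn, the collagen-binding proteoglycan decorin, had 8.73 (SE 0.36), with a value of -6.15 in the labelled wildtype and a gain of 2.58 in the labelled KO. For Tnc and Dcn labelled wildtype EBSS was the lowest of the 4 groups in every library, and with the EBSS labels exchanged both interactions passed as negative, -1.95 and -3.33.

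**Figure D3:**
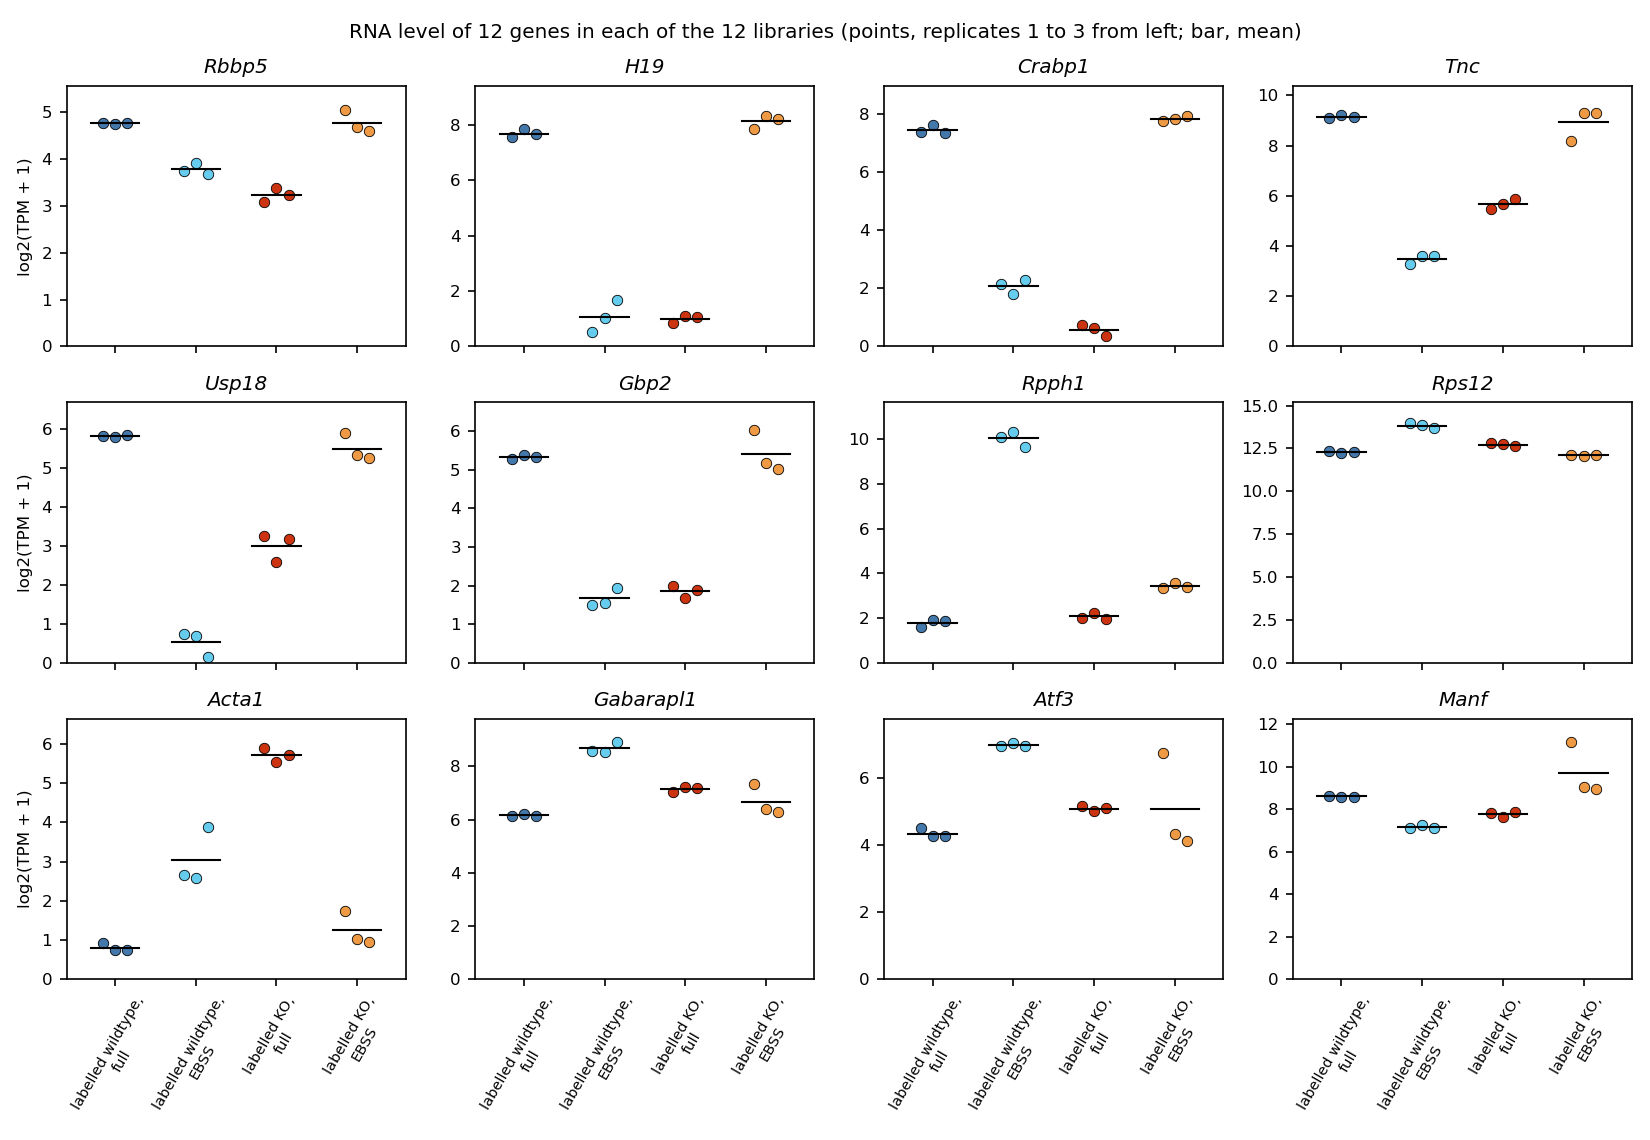
Level of 12 genes as log2(TPM + 1) (vertical axes, each from 0) in each of the 12 libraries, with replicates 1 to 3 from left to right in each of the 4 labelled groups and the group mean as a bar. H19, Crabp1, Usp18 and Gbp2 are high in labelled wildtype full medium and labelled KO EBSS and low in the other 2 groups, Rpph1 is high in labelled wildtype EBSS, and labelled KO EBSS library 1 lies apart for Atf3 and Manf.

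On the negative side, RNAs without a poly(A) tail were among the leading genes, with the protein-coding genes Acta1 and Cyp2e1 between them. Rpph1, the RNA component of RNase P and the first of them (chromosome 14, 50807449 to 50807767, minus strand), was at 2.01, 2.78 and 2.62 TPM in labelled wildtype full medium, 1102, 1302 and 809 in labelled wildtype EBSS, 3.06, 3.77 and 2.92 in labelled KO full medium and 9.09, 10.9 and 9.49 in labelled KO EBSS. Its interaction was -6.90 (SE 0.24, adjusted p 2.1e-09), although it rose in EBSS under both labels, by 8.25 in the labelled wildtype and 1.35 in the labelled KO. Rmrp, the RNA of RNase MRP, behaved alike with -6.41 (SE 0.52), and Rn4.5s, a small RNA transcribed by RNA polymerase III with many genomic copies, had -5.94 (SE 0.42). The list of RNAs without a poly(A) tail does not hold every such RNA. Snora2b and Snora70, described below and outside it, were positive as deposited. Of the 6 tested RNAs on the list, 5 had a negative and 0 a positive interaction on both scales. Their median was -5.48 as deposited, against 1.06 over all genes.

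The libraries labelled wildtype EBSS were the ones that stood out for these RNAs. Their summed TPM over the 6 RNAs was 8248 to 12487, against 167 to 477 in the other 9 libraries, and ribosomal RNA reads assigned to Rn45s were 1454 to 2105 TPM against 68.3 to 272. Rnu3a, the U3 small nucleolar RNA, was at 45.5, 16.4 and 48.4 TPM there, at most 3.47 elsewhere, and had an interaction of -5.42 (SE 0.76). Snora78, an H/ACA small nucleolar RNA, had -5.11 (SE 0.54), and its host gene Snhg9 had -5.57 (SE 0.32). Unlike the others, Snhg9 was also high in labelled KO full medium. It stood there at 106, 55.4 and 67.3 TPM, against 89.6, 119 and 119 in labelled wildtype EBSS. Snora78 was at 3.59, 2.18 and 7.66 TPM in labelled KO full medium. Snora78 (chromosome 17, 24719676 to 24719803) lies within the annotated span of Snhg9 (24719531 to 24719965) on the same strand, so reads of the pair may not be separable. A library selected for poly(A) holds such RNAs only as carry-over, and the part of library making in these values was not tested. Under exchanged EBSS labels the interactions of Rpph1, Rmrp, Rn4.5s, Rnu3a and Snora78 were positive, 3.53 to 6.31. That of Snhg9 stayed negative, at -0.82 (adjusted p 0.042 in the limma fit).

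A second negative pattern was highest in labelled KO full medium. Acta1, the skeletal muscle alpha-actin (chromosome 8, 123891769 to 123894751, minus strand), stood at 0.913, 0.674 and 0.668 TPM in labelled wildtype full medium, 5.26, 4.95 and 13.6 in labelled wildtype EBSS, 58.1, 45.5 and 51.5 in labelled KO full medium and 2.34, 1.06 and 0.939 in labelled KO EBSS. The 4 groups did not overlap, and the interaction was -6.69 (SE 0.45, adjusted p 1.6e-07), from a rise of 2.22 in the labelled wildtype and a value of -4.47 in the labelled KO. Prl2c3, a placental prolactin-family hormone with near-identical paralogs among which reads may be split, was at 52.2, 45.7 and 29.5 TPM in labelled KO full medium and at most 9.11 elsewhere, with -5.15 (SE 0.75, adjusted p 6.6e-05). Both stayed negative with the EBSS labels exchanged, at -3.12 and -3.41.

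Cyp2e1, a cytochrome P450 that oxidises ethanol and small solvents, was uneven between replicates. It stood at 8.78, 8.49 and 49.5 TPM in labelled wildtype EBSS and at 15.4, 0.897 and 17.2 in labelled KO full medium, so library 3 of the first and library 2 of the second lay apart. Levels in the other 2 groups were 0.159 to 0.552. The interaction was -6.38 (SE 1.14, adjusted p 0.00033), and -5.59 without labelled wildtype EBSS library 3.

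Interferon-stimulated genes, the antiviral effectors that type I and II interferons induce, formed 1 of the most one-sided lists. A positive interaction passed for 60 of 61 tested members and a negative one for 0, and 54 of the 61 fell in EBSS in the labelled wildtype and rose in the labelled KO. As background to this and the lists below, 64.2% of all tested genes were positive and 12.5% negative as deposited, 34% and 32.8% on the median-of-ratios scale, and 8.96% and 54.3% with the EBSS labels exchanged. The median interaction was 4.63, against 1.06 over all genes, from medians of -2.60 in the labelled wildtype and 1.82 in the labelled KO. On the median-of-ratios scale 56 were positive and 1 negative, and without labelled KO EBSS library 1 the count of 60 did not change. Under exchanged EBSS labels 2 members were positive and 36 negative, with a median of -0.96 against -0.70 over all genes. With exchanged labels on the median-of-ratios scale 3 were positive and 18 negative, where the shares over all genes were 23.2% and 24%.

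Usp18, which removes the ubiquitin-like protein ISG15 and damps interferon signalling, was at 55.7, 53.8 and 56.2 TPM in labelled wildtype full medium, 0.671, 0.625 and 0.106 in labelled wildtype EBSS, 8.48, 4.99 and 8.07 in labelled KO full medium and 58.4, 39.2 and 37.3 in labelled KO EBSS. Labelled wildtype EBSS was lowest in every library, and the interaction was 7.78 (SE 0.32, adjusted p 6.4e-09). Oasl2, an antiviral member of the oligoadenylate synthetase-like family, and Rtp4, an interferon-induced receptor transporter protein, had interactions of 7.63 (SE 0.45) and 7.61 (SE 0.39). With the EBSS labels exchanged Usp18 (-2.15) and Rtp4 (-1.29) passed as negative, and Oasl2 (-0.66) did not pass.

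Promoters of 2 guanylate-binding protein genes are shown because these members had high interactions and their windows hold the core letters bound by interferon regulatory factors (IRF). Both encode interferon-induced GTPases that act on intracellular pathogens, and as close paralogs they may share reads. The windows are the 250 bases before an annotated start in RefSeq (GRCm38.p6). They are chr3:142559794-142560043 for Gbp3 and chr3:142620413-142620662 for Gbp2, both plus strand, 5′ to 3′. Matches to AANNGAAA on either strand are in capitals. Gbp3 has 2 listed starts, and the first whose window held a match is shown. The first capital run of Gbp3 is 1 match and the second is 2 overlapping matches, and Gbp2 has 1.
Gbp3: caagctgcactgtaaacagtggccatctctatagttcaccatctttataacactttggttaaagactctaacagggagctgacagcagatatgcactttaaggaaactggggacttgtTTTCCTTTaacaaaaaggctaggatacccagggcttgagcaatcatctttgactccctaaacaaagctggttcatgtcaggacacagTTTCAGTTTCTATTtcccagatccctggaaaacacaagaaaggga
Gbp2: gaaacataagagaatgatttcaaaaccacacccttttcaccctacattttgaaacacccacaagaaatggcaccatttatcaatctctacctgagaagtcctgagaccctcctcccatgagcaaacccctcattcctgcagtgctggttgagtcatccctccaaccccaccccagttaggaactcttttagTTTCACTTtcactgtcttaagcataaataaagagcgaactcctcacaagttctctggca
This motif was found in the windows of 28 of the 46 interferon-stimulated genes that had an entry (60.9%) and in 1850 of 10008 tested genes with an entry (18.5%). Here and below, a gene counted if the window of any of its listed starts held a match. A match is a description of the letters only. Gbp3 stood at 25.2, 26.8 and 26.9 TPM in labelled wildtype full medium, 0.117, 0.462 and 1.34 in labelled wildtype EBSS, 2.18, 2.20 and 2.73 in labelled KO full medium and 41.1, 24.2 and 22.3 in labelled KO EBSS. Its interaction was 7.24 (SE 0.38, adjusted p 2.9e-08). Gbp2 showed the same pair of high and pair of low groups, with an interaction of 7.20 (SE 0.32, adjusted p 1.1e-08), and with the EBSS labels exchanged the interactions were -1.20 for Gbp3 and -0.26 for Gbp2.

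Chemokines, cytokines and other NF-kB targets of fibroblasts moved alike. A positive interaction passed for 30 of 35 tested members and a negative one for 0, with a median of 3.48, and 20 of the 35 fell in the labelled wildtype and rose in the labelled KO. On the median-of-ratios scale 24 were positive and 3 negative, and with the EBSS labels exchanged 5 were positive and 9 negative, or 8 and 3 on the median-of-ratios scale. Il1rl1, the receptor of interleukin 33, stood at 384, 406 and 401 TPM in labelled wildtype full medium, 21.8, 16.6 and 42.6 in labelled wildtype EBSS, 16.3, 17.4 and 18 in labelled KO full medium and 259, 354 and 329 in labelled KO EBSS. Its low groups overlapped while the high groups lay far above, and the interaction was 8.04 (SE 0.36, adjusted p 1.1e-08), or 0.86 (adjusted p 0.057) with the EBSS labels exchanged. Ptx3, a secreted pattern-recognition pentraxin, had 7.49 (SE 0.21), and Mmp13, a collagenase, had 6.47 (SE 0.35).

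Extracellular matrix genes and the markers that define fibroblasts were the other strongly positive lists. Of 66 tested collagens, matrix glycoproteins, proteoglycans and remodelling enzymes, 63 had a positive and 0 a negative interaction, the median was 3.65, and 50 fell in the labelled wildtype and rose in the labelled KO. On the median-of-ratios scale 56 were positive and 2 negative. The summed TPM of the list was 22627 to 23238 in labelled wildtype full medium, 4825 to 5182 in labelled wildtype EBSS, 10356 to 12078 in labelled KO full medium, and 14071, 23252 and 23337 in labelled KO EBSS, whose library 1 was again the low one. Under exchanged EBSS labels 10 members were positive and 29 negative as deposited, and the balance turned to 15 and 10 on the median-of-ratios scale.

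Among 20 fibroblast markers 16 were tested, 13 of them positive and 0 negative as deposited (11 and 3 on the median-of-ratios scale). All 12 libraries carried fibroblast RNA, with Vim, the mesenchymal intermediate filament, at 1973 TPM or more, and the summed level of the markers was 7191 to 7328 in labelled wildtype full medium, 4353 to 5350 in labelled wildtype EBSS, 5852 to 6071 in labelled KO full medium and 4527 to 7259 in labelled KO EBSS. Col1a1, the alpha 1 chain of type I collagen, stood at 1056, 1047 and 1049 TPM in labelled wildtype full medium, 184, 251 and 171 in labelled wildtype EBSS, 215, 259 and 323 in labelled KO full medium and 1000, 1277 and 1239 in labelled KO EBSS. Its interaction was 4.55 (SE 0.24, adjusted p 2.6e-08), and that of Osr1, a transcription factor of embryonic connective tissue, was 5.5 (SE 0.30). In bulk RNA fewer cells of a type and less RNA per cell cannot be told apart. Neither passed once the EBSS labels were exchanged, at -0.54 for Col1a1 and -0.21 for Osr1.

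**Figure D4:**
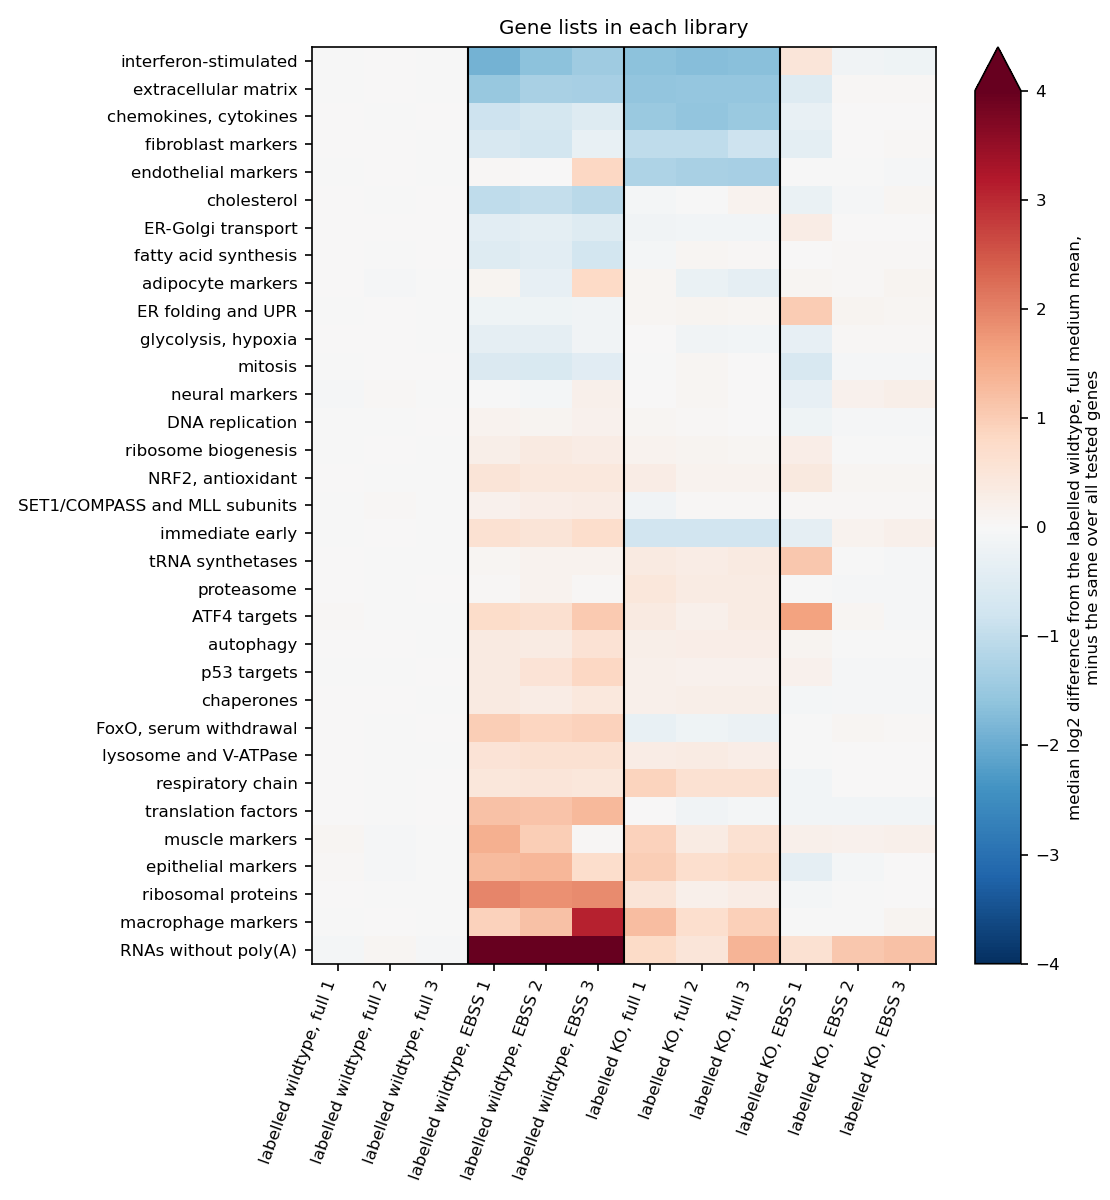
Median log2 difference of each gene list from the labelled wildtype full medium mean, minus the same median over all tested genes (colour), in each of the 12 libraries (columns, in 4 labelled groups) for 33 lists (rows). Labelled KO EBSS libraries 2 and 3 are pale in nearly every row, library 1 of that group is red for ATF4 targets, tRNA synthetases and endoplasmic reticulum folding genes, and labelled wildtype EBSS is dark red for RNAs without poly(A), where colours saturate above 4.

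Genes of the secretory pathway followed with smaller values. Of 65 genes of translocation into the endoplasmic reticulum (ER) and of ER-Golgi transport, 58 had a positive and 0 a negative interaction, with a median of 1.78, and 41 were positive and 8 negative on the median-of-ratios scale. Creb3l1, a membrane-bound transcription factor of secretory and collagen genes, stood at 52.6, 57.1 and 54.3 TPM in labelled wildtype full medium, 5.41, 4.55 and 5.98 in labelled wildtype EBSS, 1.24, 1.35 and 2.00 in labelled KO full medium and 70.4, 69.6 and 70 in labelled KO EBSS. The 4 groups did not overlap, and its interaction of 7.97 (SE 0.18, adjusted p 1.6e-10) remained positive at 0.97 with the EBSS labels exchanged. Spcs3, a signal peptidase subunit, had 4.14 (SE 0.18), and Arcn1, a coat protein of retrograde vesicles, had 3.57 (SE 0.22). With the labels exchanged the list had 1 positive and 59 negative members as deposited, and 4 and 34 on the median-of-ratios scale.

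ER chaperones, folding enzymes and genes of the unfolded protein response were positive for 31 and negative for 0 of 42 tested members, with a median of 1.49, while on the median-of-ratios scale the counts were 13 and 10. Manf, a secreted protein induced by ER stress, was at 395, 388 and 387 TPM in labelled wildtype full medium, 137, 155 and 138 in labelled wildtype EBSS, 227, 200 and 235 in labelled KO full medium and 2274, 525 and 493 in labelled KO EBSS. Library 1 of the last group lay far above its partners, and the interaction of Manf was 3.36 (SE 0.62, adjusted p 0.00042) with it and 2.64 without it. Xbp1, the transcription factor spliced by IRE1, had 3.81 (SE 0.64) with it and 3.14 without it, its level being 199 TPM in library 1 against 49.9 and 46.1. Dnajc3, a co-chaperone that inhibits the eIF2alpha kinase PERK, had 4.18 (SE 0.50) and 3.62. With the labels exchanged 0 members were positive and 31 negative as deposited, and 3 and 16 on the median-of-ratios scale.

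Cholesterol synthesis and uptake genes, the targets of SREBP2, differed mainly through the labelled wildtype. A positive interaction passed for 22 of 26 and a negative one for 1, with a median of 1.91 from -2.00 in the labelled wildtype and -0.15 in the labelled KO, and on the median-of-ratios scale 17 were positive and 5 negative. Cyp51, the sterol 14-demethylase, stood at 160, 155 and 163 TPM in labelled wildtype full medium, 16.2, 17.3 and 22.0 in labelled wildtype EBSS, 69.5, 81.0 and 88.1 in labelled KO full medium and 157, 158 and 160 in labelled KO EBSS. Labelled wildtype EBSS was the lowest group without overlap, and the interaction was 4.04 (SE 0.16, adjusted p 5e-09). Fatty acid synthesis genes had 17 positive and 1 negative of 20, or 11 and 4 on the median-of-ratios scale. With the EBSS labels exchanged 0 cholesterol genes were positive and 24 negative as deposited, and 1 and 17 on the median-of-ratios scale.

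The promoter of Hmgcs1, the HMG-CoA synthase of the sterol pathway, is shown. Among the called members with a promoter entry, it alone held the sterol regulatory element letters searched. These are TCACNCCAC on either strand (in capitals), and called members without an entry were not searched. The window is chr13:119690101-119690350, plus strand, from RefSeq (GRCm38.p6), 5′ to 3′.
Hmgcs1: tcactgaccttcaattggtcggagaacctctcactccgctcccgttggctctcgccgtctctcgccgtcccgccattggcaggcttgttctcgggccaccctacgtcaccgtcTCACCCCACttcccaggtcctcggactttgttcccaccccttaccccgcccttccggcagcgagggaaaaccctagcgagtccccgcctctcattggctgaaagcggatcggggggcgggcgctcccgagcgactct
This element was found in 1 of 18 cholesterol genes with an entry (5.56%) and in 118 of 10008 tested genes (1.18%). Hmgcs1 stood at 93.4, 91.0 and 95.5 TPM in labelled wildtype full medium, 13.5, 13.0 and 11.6 in labelled wildtype EBSS, 57.3, 72.7 and 78.1 in labelled KO full medium and 32.6, 80.0 and 80.9 in labelled KO EBSS. Its interaction was 2.58 (SE 0.39, adjusted p 9.5e-05), from a value of -2.78 in the labelled wildtype and a value of -0.20 that did not pass in the labelled KO.

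The list of ATF4 targets, among them genes of amino acid supply and of stress signalling, depended on 1 library. As deposited 14 of 39 tested members had a positive and 4 a negative interaction, with a median of 0.44, below the 1.06 over all genes, and on the median-of-ratios scale 5 were positive and 13 negative. Without labelled KO EBSS library 1 the counts as deposited were 17 and 13. Exchange of the EBSS labels gave 5 positive and 13 negative as deposited, and 7 and 2 on the median-of-ratios scale. The summed TPM of the list was 13172 in that library, 4082 and 3778 in libraries 2 and 3 of its group, 5542 to 5684 in labelled wildtype EBSS, 4053 to 4132 in labelled KO full medium and 3793 to 3894 in labelled wildtype full medium.

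Stc2, a secreted glycoprotein of the stress response, had the largest interaction of the list, 7.00 (SE 0.40, adjusted p 5.1e-08), and levels of 56.8, 27.2 and 26.4 TPM in labelled KO EBSS against 0.619 to 1.89 in labelled wildtype EBSS. Cth, the cystathionine gamma-lyase of cysteine synthesis, had 4.79 (SE 0.83), with 68.2 TPM in labelled KO EBSS library 1 and 13.4 and 11.7 in its partners. Gdf15, a secreted stress cytokine, was negative at -3.22 (SE 0.62) and -3.84 without that library. Thus named members of this list moved in both directions.

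A pair of promoters of the list are shown, chosen by the size of the interaction among called members that hold the CARE letters. ATF4 dimers bind these letters, TGATGNAA on either strand (in capitals). The interactions of the pair have opposite signs, which played no part in the choice. Both windows are on the minus strand of GRCm38.p6 and come from RefSeq, chr1:191183334-191183583 for Atf3, a stress-induced transcription factor, and chr3:50443614-50443863 for Slc7a11, the cystine importer, printed 5′ to 3′ along the gene.
Atf3: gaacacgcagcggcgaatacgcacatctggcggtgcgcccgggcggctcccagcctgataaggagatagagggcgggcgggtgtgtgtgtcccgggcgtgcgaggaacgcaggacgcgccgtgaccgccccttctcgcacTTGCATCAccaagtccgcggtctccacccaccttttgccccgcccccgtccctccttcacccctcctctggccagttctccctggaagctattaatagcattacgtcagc
Slc7a11: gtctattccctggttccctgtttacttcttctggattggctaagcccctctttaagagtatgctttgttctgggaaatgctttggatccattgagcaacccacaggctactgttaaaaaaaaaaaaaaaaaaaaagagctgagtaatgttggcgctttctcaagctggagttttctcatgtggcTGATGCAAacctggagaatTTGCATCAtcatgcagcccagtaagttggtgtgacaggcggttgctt
These letters were in 10 of 31 members with an entry (32.3%) and in 234 of 10008 tested genes (2.34%). Atf3 stood at 21.4, 18.1 and 18.1 TPM in labelled wildtype full medium, 123, 129 and 122 in labelled wildtype EBSS, 34.4, 30.8 and 33.0 in labelled KO full medium and 106, 19.1 and 16.4 in labelled KO EBSS. Only library 1 of labelled KO EBSS came near labelled wildtype EBSS, and the interaction was -2.65 (SE 0.72, adjusted p 0.0057) with it and -3.48 without it. For Slc7a11 the levels were 1.83, 1.75 and 1.79 TPM, then 1.16, 1.32 and 2.07, then 0.462, 0.506 and 0.589, and 26.8, 2.37 and 1.82 TPM in the same order of groups. Its interaction of 2.25 (SE 0.92, adjusted p 0.044) became 1.19 without that library, still passing. On the median-of-ratios scale it was 1.43 (adjusted p 0.18) and did not pass. The call as deposited was lost on leaving out most other single libraries in turn.

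Cytosolic tRNA synthetases, many of them ATF4 targets, had 10 positive and 0 negative of 20, or 2 and 8 on the median-of-ratios scale, and without labelled KO EBSS library 1 the counts as deposited were 11 and 4. Exchange of the EBSS labels gave 1 positive and 15 negative as deposited, and 2 and 4 on the median-of-ratios scale. Dars, the aspartyl-tRNA synthetase, had 2.75 (SE 0.20) and Rars, the arginyl-tRNA synthetase, had 1.84 (SE 0.14). Tars, the threonyl-tRNA synthetase, stood at 644, 267 and 251 TPM in labelled KO EBSS against 81.3 to 85.8 in labelled wildtype EBSS and 240 to 266 in the full medium groups. Its interaction was 2.03 (SE 0.38) and did not pass on the median-of-ratios scale (0.88, adjusted p 0.051).

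Autophagy and lysosome genes were divided. Of 52 autophagy genes 27 had a positive and 13 a negative interaction, with a median of 0.42 below that of all genes, and on the median-of-ratios scale the majority turned, with 9 positive and 28 negative. Gabarapl1, an ATG8-family protein of the autophagosome membrane, stood at 70, 73.7 and 69.8 TPM in labelled wildtype full medium, 378, 375 and 482 in labelled wildtype EBSS, 131, 147 and 145 in labelled KO full medium and 160, 83.1 and 76.8 in labelled KO EBSS. Labelled wildtype EBSS was highest without overlap, and the interaction was -2.98 (SE 0.31, adjusted p 5.2e-06). Stx17, the SNARE that fuses autophagosomes with lysosomes, had the opposite sign at 2.90 (SE 0.32), as did Pik3r4, the VPS15 subunit of the VPS34 lipid kinase complex, at 2.71 (SE 0.21).

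Of 69 lysosomal genes 31 were positive and 26 negative, with a median of 0.13, or 12 and 43 on the median-of-ratios scale. Atp6v0b, a membrane subunit of the proton pump that acidifies lysosomes, stood at 230, 211 and 221 TPM in labelled wildtype full medium, 1059, 1179 and 1013 in labelled wildtype EBSS, 589, 544 and 595 in labelled KO full medium and 368, 210 and 214 in labelled KO EBSS. Its interaction was -3.46 (SE 0.25, adjusted p 2.5e-07). Ctsh, the lysosomal protease cathepsin H, was instead lowest in labelled KO full medium, at 1.28, 1.15 and 1.47 TPM against 10.7 to 19.4 in the other 9 libraries, and its interaction of 3.56 (SE 0.19, adjusted p 3.5e-08) was 2.52 with the EBSS labels exchanged. Ids, the iduronate sulfatase, had 3.13 (SE 0.19). With those labels exchanged the autophagy list had 7 positive and 26 negative members and the lysosome list 7 and 30 as deposited. On the median-of-ratios scale the balance turned, to 23 and 12 for autophagy and 34 and 13 for lysosome genes.

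Proteasome subunits and assembly factors, which degrade ubiquitinated proteins, had 26 positive and 3 negative interactions among 38, a positive share near the 64.2% of all tested genes, and 5 and 23 on the median-of-ratios scale. Exchange of the EBSS labels gave 0 positive and 36 negative, or 1 and 9 on the median-of-ratios scale. Psmd6, a lid subunit of the regulatory particle, had 2.16 (SE 0.10) as deposited and 1.02 on the other scale. Psmd14, the lid deubiquitinase, had 1.71 (SE 0.13) and Psma4, a core particle subunit, had 1.68 (SE 0.19), or 0.56 and 0.53. All 3 were lower in EBSS under the wildtype label, for Psmd6 at 42.9, 42.6 and 43.4 TPM against 158, 152 and 159 in full medium.

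Ribosomal protein genes formed the largest list on the negative side. Of 79 tested, 73 had a negative and 3 a positive interaction as deposited, and all 79 were negative on the median-of-ratios scale, with a median of -1.12 as deposited. In the labelled wildtype 78 were higher in EBSS and 0 lower, and in the labelled KO 12 were higher and 32 lower. Rps12, a protein of the small subunit, stood at 5166, 4841 and 4922 TPM in labelled wildtype full medium, 15961, 14882 and 13088 in labelled wildtype EBSS, 7081, 6882 and 6395 in labelled KO full medium and 4373, 4261 and 4530 in labelled KO EBSS. The 4 groups did not overlap, and the interaction was -2.18 (SE 0.12, adjusted p 5e-08). Rpl41, a short protein of the large subunit, had -2.40 (SE 0.17) and Rps15 -2.38 (SE 0.18). These genes have many processed pseudogenes with which reads may be shared. Exchange of the EBSS labels left a list in which 67 of the 79 were positive and 0 negative.

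Translation factors whose mRNAs also begin with a TOP motif, the pyrimidine tract through which mTORC1 controls translation, had 7 positive and 9 negative of 19, and 0 and 17 on the median-of-ratios scale. With the EBSS labels exchanged 14 were positive and 2 negative as deposited. Eef2, elongation factor 2, stood at 2401, 2401 and 2430 TPM in labelled wildtype full medium, 5765, 6200 and 5611 in labelled wildtype EBSS, 2600, 2625 and 2689 in labelled KO full medium and 2627, 2452 and 2466 in labelled KO EBSS. Only labelled wildtype EBSS stood apart, and the interaction was -1.35 (SE 0.09, adjusted p 2.2e-07). Eef1b2, an exchange factor of elongation factor 1, had -1.02 (SE 0.10). Eif3m, a subunit of initiation factor 3, had 0.95 (SE 0.11) as deposited and a value of -0.20 that did not pass on the median-of-ratios scale. Ribosome biogenesis factors had 30 positive and 3 negative of 48, a positive share near the 64.2% of all tested genes, or 9 and 21 on that scale.

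Nuclear-encoded subunits of the respiratory chain had 18 positive and 28 negative of 75, with a median of -0.04, and 0 positive and 63 negative on the median-of-ratios scale. Cox4i1, a subunit of cytochrome c oxidase, stood at 809, 769 and 727 TPM in labelled wildtype full medium, 1574, 1608 and 1516 in labelled wildtype EBSS, 1602, 1342 and 1440 in labelled KO full medium and 717, 695 and 700 in labelled KO EBSS. Labelled wildtype EBSS and labelled KO full medium were the high pair and overlapped, and the interaction was -2.08 (SE 0.11, adjusted p 2.6e-08). Uqcrh, of complex III, had -1.80 (SE 0.24) and Ndufb2, of complex I, had -1.56 (SE 0.31). Under exchanged EBSS labels Cox4i1 (0.23) and Uqcrh (0.10) did not pass, and Ndufb2 remained negative at -1.24. The list then had 2 positive and 56 negative members as deposited, and 16 and 29 on the median-of-ratios scale.

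**Figure D5:**
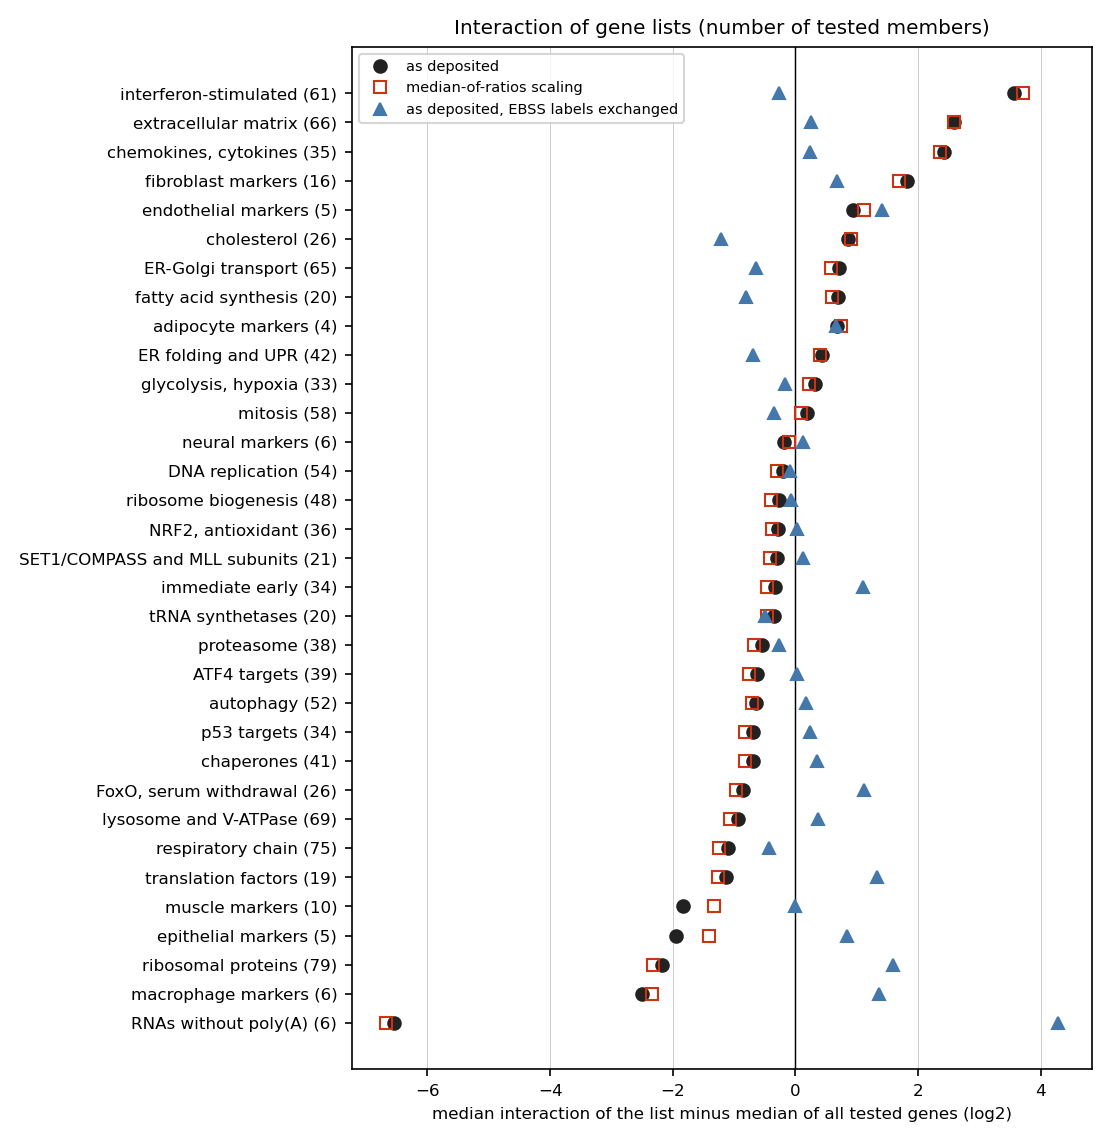
Median interaction of each gene list minus the median over all tested genes (log2, horizontal axis) for 33 lists (rows, number of tested members in brackets), as deposited (black circles), after median-of-ratios scaling (red squares) and as deposited with the EBSS genotype labels exchanged (blue triangles). Interferon-stimulated and matrix genes lie to the right and ribosomal proteins and RNAs without poly(A) to the left on both scales, and the triangles lie elsewhere for most lists.

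Subunits of the SET1/COMPASS and MLL complexes themselves, the partners of RBBP5, had 14 positive and 2 negative interactions among 21, a positive share near the 64.2% of all tested genes, with a median of 0.76, under that of all genes, and 6 and 10 on the median-of-ratios scale. Wdr82, the SET1-specific subunit that binds RNA polymerase II, stood at 63.0, 62.0 and 61.8 TPM in labelled wildtype full medium, 23.7, 21.3 and 26.4 in labelled wildtype EBSS, 30.4, 35.8 and 34.2 in labelled KO full medium and 65.5, 64.3 and 64.5 in labelled KO EBSS. Its interaction was 2.29 (SE 0.13, adjusted p 4.6e-08), or 1.16 on the median-of-ratios scale. Hcfc1, a cofactor of SET1 and MLL1 complexes, had 2.25 (SE 0.18), or 0.25 (adjusted p 0.24) with the EBSS labels exchanged, and Bod1l, a SET1A partner that protects replication forks, had 2.13 (SE 0.25). For the list that exchange gave 3 positive and 14 negative members as deposited, and the opposite balance, 9 and 4, on the median-of-ratios scale.

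Cell division genes were mostly lower in EBSS under the wildtype label, as were 71.8% of all tested genes. Of 58 mitosis genes 56 fell there and 0 rose, and of 54 DNA replication genes 41 fell and 5 rose. Of the mitosis genes 49 had a positive and 1 a negative interaction as deposited, with a median of 1.26 against 1.06, and 17 and 10 did on the median-of-ratios scale. Plk1, the mitotic polo-like kinase, stood at 86.2, 90.3 and 88.0 TPM in labelled wildtype full medium, 12.4, 16.7 and 5.80 in labelled wildtype EBSS, 50.8, 56.4 and 51.1 in labelled KO full medium and 68.6, 105 and 103 in labelled KO EBSS. The interaction was 3.70 (SE 0.40, adjusted p 6.2e-06). Ttk, a spindle checkpoint kinase, had 3.69 (SE 0.37) and Kif23, a kinesin of the midbody, had 2.91 (SE 0.22). The replication genes had 35 positive and 8 negative interactions, a positive share near the 64.2% of all tested genes, but 9 and 21 on the median-of-ratios scale. Dnmt1, the maintenance DNA methyltransferase, had 3.22 (SE 0.16), Tyms, thymidylate synthase, 2.93 (SE 0.18), and Rfc5, a clamp loader subunit, 2.75 (SE 0.12). Under exchanged EBSS labels the 6 named genes were negative, -1.09 to -2.26, and passed. The mitosis list then had 1 positive and 43 negative members and the replication list 5 and 34, or 5 and 20 and 17 and 14 on the median-of-ratios scale.

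Serum-responsive genes did not move as 1 group. Of 34 immediate early and serum-responsive genes 17 were positive and 8 negative, and 14 and 15 on the median-of-ratios scale. Etv5, an ETS factor downstream of ERK, had 4.33 (SE 0.26), and Fosl2, an AP-1 factor, had 4.31 (SE 0.25). Dusp4, a phosphatase that inactivates MAP kinases, went the other way, with 5.52, 4.83 and 4.77 TPM in labelled wildtype full medium, 34.6, 36.6 and 39.7 in labelled wildtype EBSS, 17.9, 19.5 and 20.0 in labelled KO full medium and 5.95, 4.32 and 3.72 in labelled KO EBSS. Its interaction was -4.5 (SE 0.20, adjusted p 1.1e-08), and 1.03 with the EBSS labels exchanged.

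FoxO targets and genes induced on serum withdrawal had 11 positive and 7 negative of 26, or 6 and 14 on the median-of-ratios scale, and 13 and 5 as deposited with the EBSS labels exchanged. Gas1, a membrane protein named for its induction at growth arrest, stood at 53.1, 53 and 53.1 TPM in labelled wildtype full medium, 11.5, 8.15 and 15.7 in labelled wildtype EBSS, 2.48, 3.56 and 3.03 in labelled KO full medium and 48.6, 63.4 and 62.2 in labelled KO EBSS. The interaction of 6.0 (SE 0.28, adjusted p 1.3e-08) was 1.52 with the EBSS labels exchanged. Sesn3, a FoxO-induced inhibitor of mTORC1, had 2.76 (SE 0.18), and Ccnd1, cyclin D1, which FoxO factors repress, had 2.55 (SE 0.38), neither of them highest in labelled wildtype EBSS.

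The remaining lists changed balance with the scale. Positive and negative counts were 15 and 11 of 34 p53 targets (2 and 18 on the median-of-ratios scale), 26 and 0 of 33 glycolysis and hypoxia genes (14 and 10), 19 and 7 of 36 NRF2 and antioxidant genes (8 and 13), and 22 and 7 of 41 cytosolic and mitochondrial chaperones (3 and 27). With the EBSS labels exchanged the counts as deposited were 7 and 15 for p53 targets, 3 and 22 for glycolysis and hypoxia genes, 4 and 17 for NRF2 and antioxidant genes and 9 and 20 for the chaperones. On the median-of-ratios scale they were 12 and 6, 8 and 12, 8 and 7, and 20 and 8. Over all genes the shares were 64.2% positive and 12.5% negative as deposited.

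Some genes responded in the same direction under both labels, or in 1 of them only. Egr1, the serum-response zinc finger factor, was higher in EBSS under both, at 295, 331 and 383 TPM in labelled wildtype EBSS against 154, 167 and 164 in its full medium, and at 139, 206 and 188 in labelled KO EBSS against 14.5, 15 and 12.7. Labelled KO full medium was the only low group, and the interaction was 2.51 (SE 0.20, adjusted p 5.4e-07), or 4.36 with the EBSS labels exchanged. Ager, the receptor for advanced glycation end products, had a like order of levels and 1.30 (SE 0.18) as deposited, but 0.20 (adjusted p 0.38) on the median-of-ratios scale. Cdh17, the liver-intestine cadherin, was lower in EBSS under both, standing at 68.0, 72.4 and 70.5 TPM in labelled KO full medium and at 0.779 to 3.96 in the other 9 libraries, with an interaction of -3.08 (SE 0.26, adjusted p 9.2e-07). Prl3d2, a placental lactogen with paralogs, followed it with 16.2 to 20.1 TPM in labelled KO full medium, at most 1.21 elsewhere and -2.55 (SE 0.23).

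Zbed4, a BED-type zinc finger protein, and Pdk1, the pyruvate dehydrogenase kinase, were lower in EBSS under both labels with positive interactions of 2.41 (SE 0.19) and 2.33 (SE 0.22). Pdk1 stood at 31.9, 30.8 and 32.5 TPM in labelled wildtype full medium, 3.23, 4.08 and 2.99 in labelled wildtype EBSS, 36.0, 40.5 and 39.1 in labelled KO full medium and 19.7, 29.9 and 29.1 in labelled KO EBSS. Fgf2, fibroblast growth factor 2, fell in the labelled wildtype and did not pass in the labelled KO. In labelled KO EBSS it stood at 3.2, 29 and 26 TPM, so library 1 was the low one, and its interaction was 6.02 (SE 0.88) with that library and 6.94 without it.

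In the class where neither effect passed alone, with 63 positive and 35 negative interactions, 4 genes were named. Snora2b, a small nucleolar RNA, had 4.5 (SE 1.86, adjusted p 0.045). It stood at 0, 54.3 and 0 TPM in labelled wildtype EBSS, a group in which a high level lowers the interaction. Plvap, an endothelial caveolar protein, had -1.06 (SE 0.44, adjusted p 0.046). Snora2b and Plvap lost the call when any of several single libraries was left out. Apbb1, an adaptor of the amyloid precursor protein, had 1.98 (SE 0.70), which was 1.19 without labelled wildtype EBSS library 3 and 1.00 (adjusted p 0.28) on the median-of-ratios scale. Vamp8, an endosomal SNARE, had -0.78 (SE 0.26), and -1.92 (adjusted p 0.00011) on the median-of-ratios scale. Apbb1 and Vamp8 kept their calls whichever single library was left out. Snora70, also a small nucleolar RNA, belonged to another class of EBSS effects. It rose in the labelled KO (2.95, adjusted p 0.022) and did not pass in the labelled wildtype. It was listed at 0 in all 3 labelled KO full medium libraries and its interaction of 4.64 (SE 1.35) depends on the pseudocount and did not pass on the median-of-ratios scale (adjusted p 0.054).

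For macrophage markers 1 library stood apart. Of 15 macrophage markers 6 were tested, 1 with a positive and 3 with a negative interaction. Their sum over all 15 was 30.1 to 31.1 TPM in labelled wildtype full medium, 26.1, 30.9 and 138 in labelled wildtype EBSS, 69.6 to 73.8 in labelled KO full medium and 31.7 to 34.6 in labelled KO EBSS. Tyrobp and Adgre1, adaptor and surface markers of macrophages, were at 0 in all 6 libraries of labelled wildtype full medium and labelled KO EBSS and reached 6.2 and 3.38 TPM in labelled wildtype EBSS. Lyz2, the macrophage lysozyme, was at 2.22, 2.93 and 48.4 TPM in labelled wildtype EBSS, so library 3 was the high one, and its interaction was -4.17 (SE 1.13, adjusted p 0.0055) with it and -2.91 without it.

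Cd68, a lysosomal membrane protein used as a macrophage marker, was instead high in labelled KO full medium, at 57.1, 62.0 and 56.4 TPM against 14.8 to 20.4 elsewhere, with -1.74 (SE 0.17, adjusted p 2.9e-06). Cd14, the lipopolysaccharide co-receptor, which fibroblasts also express, had 2.62 (SE 0.28). S100a14, a calcium-binding protein of epithelia, stood at 0.184, 0.292 and 8.95 TPM in labelled wildtype EBSS and at 10.8, 11.2 and 9.78 in labelled KO full medium, with -4.04 (SE 0.87) and -3.04 without labelled wildtype EBSS library 3.

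Other marker lists were small. Positive and negative counts were 3 and 1 of 5 tested endothelial, 1 and 2 of 5 epithelial, 4 and 5 of 10 muscle, 3 and 0 of 6 neural and 3 and 1 of 4 adipocyte markers, and 3 and 2, 0 and 3, 3 and 5, 2 and 2, and 2 and 1 on the median-of-ratios scale. Summed levels in the 4 groups, in the order used above, were 37.7 to 39.7, 18.7 to 24.0, 16.8 to 18.1 and 28.5 to 37.0 TPM for endothelial markers and 20.35 to 20.6, 27.3 to 35.0, 77.3 to 102.5 and 21.35 to 22.6 for muscle markers. For epithelial markers they were 172.5 to 186, 215 to 235, 260.2 to 293 and 111.5 to 160.2, mostly Krt19, and for neural markers 173 to 188, 55.0 to 69.3, 95.7 to 105 and 115 to 210, mostly Nes. For adipocyte markers the sums were 57.1 to 70.6, 16.5 to 23.4, 56.2 to 68.8 and 55.0 to 69.0, mostly Fabp4. The highest members were the keratin Krt19 (96.7 to 271 TPM over the 12 libraries) for epithelium, Egfl7 (5.22 to 22.6) for endothelium, Acta1 for muscle, the intermediate filament gene Nes (28 to 163) for neural cells and the fatty acid carrier Fabp4 (5.94 to 60.8) for adipocytes. At the other end, 5 of 12 endothelial, 6 of 12 epithelial, 8 of 18 muscle, 6 of 13 neural and 5 of 10 adipocyte markers never exceeded 1 TPM. Among these, Cldn5 (endothelial), Krt14 (epithelial), Myod1 (muscle), Dcx (neural) and Plin1 (adipocyte) were at 0 in 10, 7, 10, 11 and 11 of the 12 libraries and at most 0.224 TPM in the rest. Their part in the interaction was not tested.

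Few interactions kept their direction whichever way the EBSS labels and the scale were set. A call in the same direction in all 4 combinations was found for 249 positive and 311 negative genes. Among the genes named here these were Rbbp5, Crabp1, Ctsh, Creb3l1, Gas1 and Egr1 on the positive side and Acta1, Prl2c3, Cd68, Plvap, Cdh17 and Prl3d2 on the negative side. In all 12 of them labelled KO full medium was the extreme group without overlap, lowest for the 6 positive genes and highest for the 6 negative ones. The interaction with and without exchanged labels shares the full medium difference by construction, so this order follows in part from the way the genes were picked. The call of Plvap as deposited was lost on leaving out most single libraries in turn.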

How the data were processed

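Polyadenylated RNA of MEFs was sequenced in 12 libraries (TruSeq kit, per the labels' protocols). The authors deposited 1 table of TPM per gene symbol, and their processing notes name Salmon and the mouse build mm10; its version, the annotation and any filters are not given in the sources read. TPM keep no read depth, so the depth of each library is unknown and only the spread between libraries limits precision. A gene entered with at least 1 TPM in at least 3 libraries. limma 3.58.1 in R 4.3.3 fitted 1 mean per group to log2(TPM + 1) with a variance trend and a two-sided moderated test, and p-values were adjusted by Benjamini-Hochberg over all 12653 genes (threshold 0.05). Only the 4 groups' titles set the grouping. Coordinates are GENCODE vM21 on GRCm38 by symbol, and promoters are from RefSeq. The fit was tested on simulated data.

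The members and the 33 lists were chosen with earlier results of these data known. Genes named are Rbbp5, the 10 most positive and 10 most negative interactions called on both scales with at least 10 TPM in the highest group, up to 3 called members with at least 5 TPM for each of 22 lists, up to 2 genes for each class of EBSS effects, and the genes whose promoters are shown. Predicted genes, pseudogenes and clone names were left out, and 5 genes that met the rule are not reported here. Alternatives were pseudocounts, filters, scalings, variance settings, library weights, a 2-fold minimum, a replicate block, libraries left out and exchanged EBSS labels; 3 combinations of these were chosen after seeing the data. Replicate numbers gave no sign of pairing: deviations from the group means correlated at -0.073 to 0.079 over the 18 pairs with the same number. This check cannot tell whether libraries with the same number shared a culture or embryo.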

Additional observations from a re-analysis of the deposited data

Results flagged for a closer look

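Each called interaction in the report is by definition a tested difference between the effects of EBSS under the 2 genotype labels. The values given here are those of the named genes whose difference was called in the same direction on both scales and with the EBSS labels either as given or exchanged. These were Rbbp5 (2.52), Crabp1 (12.62), Ctsh (3.56), Creb3l1 (7.97), Gas1 (6.0) and Egr1 (2.51) with a positive interaction and Acta1 (-6.69), Prl2c3 (-5.15), Cd68 (-1.74), Plvap (-1.06), Cdh17 (-3.08) and Prl3d2 (-2.55) with a negative one, on the log2 scale as deposited. The call of Plvap was lost on leaving out most single libraries in turn, with adjusted p-values from limma of 0.053 to 0.101 there. Groups of 3 libraries are too small for a test of single outlying libraries. The level of Rbbp5 itself went against the EBSS labels, as described above, and how the labels and libraries correspond was not tested.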

How the results depend on the processing

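Each of the 12 libraries left out in turn gave 9256 to 10411 called interactions, 7809 to 8543 positive and 1432 to 1868 negative, with 9741 to 10690 genes called for EBSS in the labelled wildtype and 5952 to 8419 in the labelled KO. Other pseudocounts, filters, variance settings, library weights and leaving out ribosomal protein genes kept the 5 counts of called genes within 1.5 times their values in the report. A replicate block gave 9626 called interactions, 8071 positive and 1555 negative, and took the call from Plvap (adjusted p 0.067). With a 2-fold minimum 4874 interactions passed, 4424 positive and 450 negative, and 3942 and 873 genes passed for EBSS in the labelled wildtype and the labelled KO. Scaling moved the balance: positive and negative counts were 4296 and 4153 with median-of-ratios scaling, 4068 and 4346 with quantile normalization, and 4226 and 4101 with median-of-ratios scaling and the replicate block. Eif3m turned to -0.20 with median-of-ratios scaling and Ager to -0.22 with quantile normalization, neither of which passed. With the EBSS labels exchanged 1134 were positive and 6865 negative, or 2938 and 3033 (5971 in all) with median-of-ratios scaling as well, and 1288 and 6921 without labelled KO EBSS library 1. The comparison that then stands for EBSS in the labelled wildtype passed for 17, 14 and 23 genes. The cause was not tested. The fit cannot tell which labeling is right, TPM give no depth by which low values could be weighed, and calls for Snora2b, Plvap and Slc7a11 were lost on leaving out single libraries.

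Of the named genes 68 reversed with the EBSS labels exchanged, whether or not the new value passed. To a positive value turned Rpph1 6.31, Rmrp 5.68, Cyp2e1 0.78, Rn4.5s 4.44, Rnu3a 3.53, Snora78 5.21, Gdf15 0.0081, Gabarapl1 1.04, Atp6v0b 0.70, Rpl41 0.80, Rps15 0.23, Rps12 1.29, Eef2 1.09, Eef1b2 1.75, Cox4i1 0.23, Uqcrh 0.10, Dusp4 1.03, Lyz2 0.87, Atf3 1.17. To a negative value turned H19 -0.38, Kap -0.66, Tuba8 -1.21, Tnc -1.95, Dcn -3.33, Wdr82 -0.53, Bod1l -1.26, Stc2 -1.30, Cth -1.33, Dars -1.18, Tars -2.10, Rars -1.67, Stx17 -0.80, Pik3r4 -0.91, Ids -1.78, Psmd6 -1.10, Psmd14 -0.92, Psma4 -1.13, Dnajc3 -2.21, Xbp1 -2.06, Manf -1.72, Spcs3 -1.50, Arcn1 -1.59, Usp18 -2.15, Oasl2 -0.66, Rtp4 -1.29, Ptx3 -1.94, Mmp13 -0.76, Sesn3 -0.10, Ccnd1 -1.78, Etv5 -0.83, Fosl2 -0.68, Plk1 -2.23, Ttk -2.26, Kif23 -2.16, Dnmt1 -1.09, Tyms -1.53, Rfc5 -2.12, Cyp51 -2.04, Osr1 -0.21, Col1a1 -0.54, Apbb1 -0.32, Fgf2 -0.60, Zbed4 -2.57, Pdk1 -2.87, Gbp3 -1.20, Gbp2 -0.26, Hmgcs1 -1.71, Slc7a11 -0.49.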
